A study of Mesocricetus auratus with 14 samples.

Results

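The genes described here are 9 that bring thiamine into cells or act at the thiamine-dependent oxidation of pyruvate and 2-oxoglutarate: the transporter Slc19a2, the pyruvate dehydrogenase subunits Pdha1, Pdhb, Dlat and Dld, the pyruvate dehydrogenase kinases Pdk1, Pdk2 and Pdk4, and the 2-oxoglutarate dehydrogenase subunit Ogdh. They were taken by symbol from the 10023 genes of the authors' table of symbols, and all 9 were found there. All 9 also passed the filter on low counts that left 12166 genes for testing. The list was drawn up with earlier results of this same comparison in view, among them the low Slc19a2 level in treated livers, so the tests of its members are given as a description and support nothing on their own. Liver RNA of golden hamsters (Mesocricetus auratus) was sequenced in 7 libraries labelled DC371739, after the code of the compound given, and 7 labelled control. Every animal sampled, treated or control, was on a high-fat diet. The sources used here give no dose, route, duration, strain, sex or age. They also do not say that each library came from its own animal. A p-value here therefore sets the group difference against the spread between libraries, which may be partly technical.

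Thiamine enters cells through carriers and is converted to thiamine pyrophosphate, the cofactor that the first component of the pyruvate, 2-oxoglutarate and branched-chain 2-oxo acid dehydrogenase complexes uses to remove carbon dioxide. Pyruvate dehydrogenase makes acetyl-CoA from pyruvate in mitochondria and so joins glycolysis to the citric acid cycle and to fatty acid synthesis. Its kinases switch it off by phosphorylating the alpha subunit of the first component, and its phosphatases switch it on again. In liver the complex is known for following the nutritional state, and Pdk4 for being induced by fasting and by fatty acids.

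Total counts were 13672589 to 23948628 per library. The 3 libraries of highest total, DC371739 replicate 7 and control replicates 6 and 7, held 22152239 to 23948628 counts, against 13672589 to 16710097 in the other 11 (6 DC371739 and 5 control), and 12.6% to 14.4% of their counts fell on the 37 mitochondrial features, against 7.23% to 9.33%. They are called the deeper libraries below. Their class was defined from the data and holds 1 DC371739 and 2 control libraries, so the members were tested over all 14 libraries, over the same 14 with library class as a term, and over the 11 shallower ones alone. Hepatocyte markers were high in every library, their 9 measured genes summing to 99922 to 120238 FPKM in DC371739 and 105115 to 137258 FPKM in control livers. Alb made up most of these sums, averaging 80918 FPKM in DC371739 and 86475 FPKM in control livers. None of the 9 was called over all 14 libraries. With library class as a term Hnf4a rose (log2 change 0.40, edgeR adjusted p = 0.0359). Over the 11 shallower libraries Hnf4a (0.52, adjusted p = 0.00504) and Apob (0.36, adjusted p = 0.00647) rose. There 4 of the 9 had a positive and 5 a negative log2 change. Apoa2 (-0.42, edgeR adjusted p = 0.0574) and Ttr (-0.23, adjusted p = 0.126) were among the negative ones and were not called. The 11 measured macrophage markers summed to 606 to 993 FPKM in DC371739 and 550 to 769 FPKM in control livers, ranges that overlapped. None of the 11 was at 0 in any library. Over all 14 libraries 10 of the 11 had a positive log2 change and Cd163 a negative one (-0.55, edgeR adjusted p = 0.548). Of the 11, 3 (Mpeg1, Ctss and Laptm5) were called as higher there, 8 were not called and 0 were called as lower, where 1.85% of all genes were called. With library class as a term 8 of the 11 rose, against 12.3% of all genes called, and over the 11 shallower libraries 6 of the 11, against 21.5%. Summed stellate and fibroblast markers were 86.9 to 139 FPKM in DC371739 and 67.8 to 105 FPKM in control livers, and 1 of the 7 (Col1a2) rose both in the fit with library class and in the shallower libraries. Endothelial markers were at 76.5 to 119 FPKM in DC371739 and 70.8 to 114 FPKM in control livers, and 2 of the 7 (Pecam1 and Cdh5) rose in the same pair of fits. Stab1, Stab2 and Clec4g of that list had negative log2 changes in all 3 fits and were not called. Over the shallower libraries they were at -0.12, -0.12 and -0.15. Over all 14 libraries no gene of either list was called. None was called in any of the 3 fits for cholangiocyte markers, at 16.4 to 34.9 FPKM in DC371739 and 16.0 to 23.2 FPKM in control livers.

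Levels are FPKM, the authors' count divided by exon length and scaled by 1 constant per library, which allows genes of different length to be set side by side. The most abundant of the 9 was Pdhb, at 135 ± 7.25 FPKM in DC371739 and 133 ± 9.55 FPKM in control livers (SD, n = 7 each), and it stood above 94.2% of the genes in the authors' table. Ogdh averaged 95.4 ± 14.7 FPKM in DC371739 and 87.8 ± 10.9 FPKM in control livers, and Dld 87.3 ± 9.70 FPKM in DC371739 and 88.8 ± 25.8 FPKM in control livers; their ranges overlapped in both groups. Pdk2 and Pdha1 followed and also overlapped, and then came Dlat and Slc19a2, with ranges that overlapped widely in control livers and only at 16.5 to 16.7 FPKM in DC371739 livers. Pdk1 and Pdk4 were the lowest, above 37.1% and 39.6% of the genes. The order of the 9 means was the same in both groups except for 3 neighbouring pairs, Ogdh and Dld, Dlat and Slc19a2, and Pdk1 and Pdk4.

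**Figure D1:**
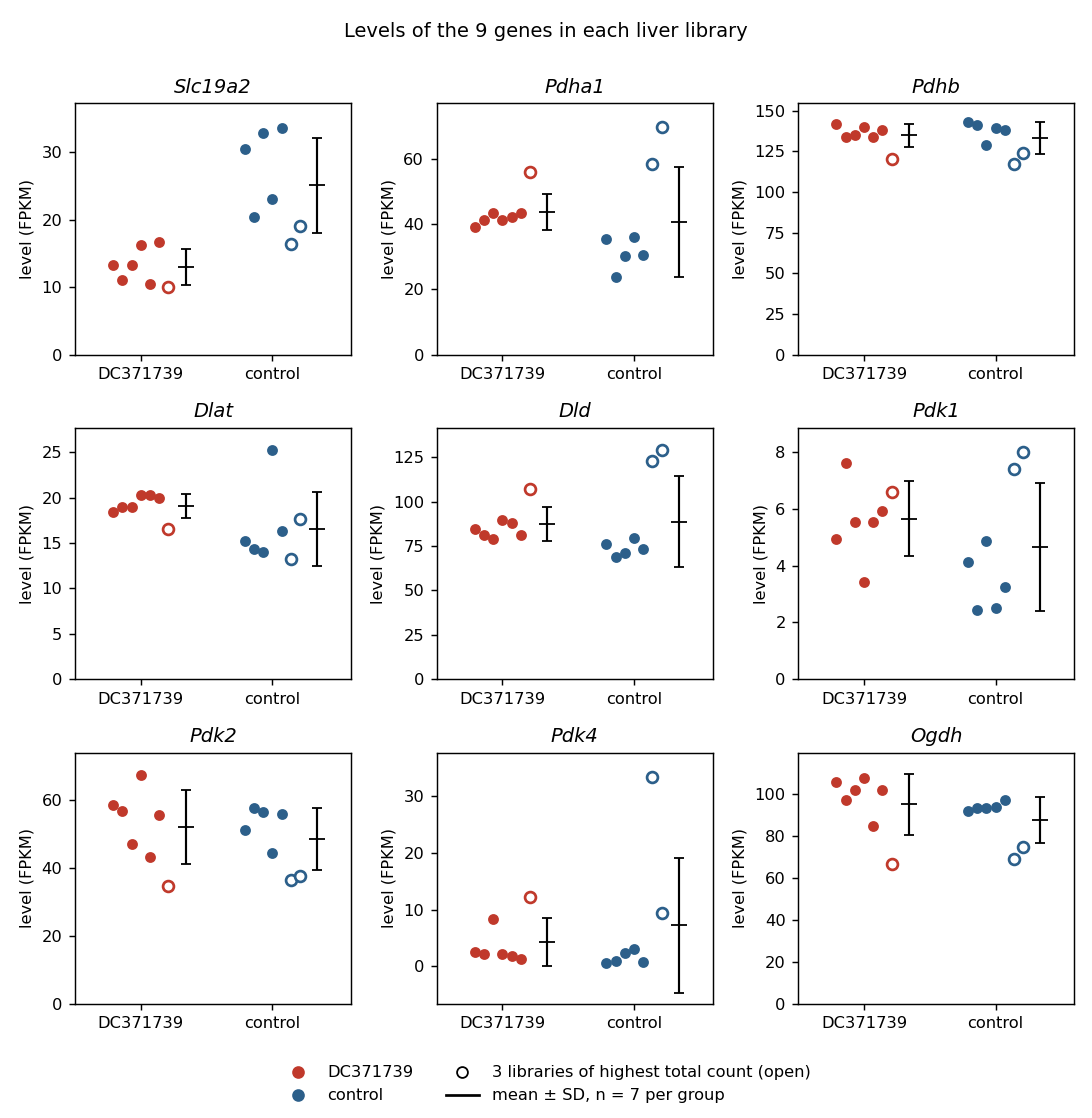
Level in FPKM (vertical axis, 1 panel per gene) in each DC371739 and control library, with open circles for the 3 deeper libraries and the mean ± SD of the 7 libraries of each group beside them. Slc19a2 is low in DC371739 libraries (9.94 to 16.7 FPKM, against 16.4 to 33.6 FPKM in control), while the open circles stand apart from the filled ones for Pdha1, Pdhb, Dld, Pdk2, Pdk4 and Ogdh in both groups.

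Slc19a2, which encodes the high-affinity thiamine transporter THTR1 of the plasma membrane, was the member that differed most clearly between groups. It had a lowest, median and highest level of 9.94, 13.2 and 16.7 FPKM in DC371739 livers, against 16.4, 23.1 and 33.6 FPKM in control livers. The groups overlapped only at their edges, where control replicate 6, a deeper library with 16.4 FPKM, lay below DC371739 replicate 6 with 16.7 FPKM and just above DC371739 replicate 4 with 16.3 FPKM. Slc19a2 fell by 0.96 on the log2 scale in DC371739 livers (SE 0.18, 95% interval -1.34 to -0.57), with an edgeR adjusted p of 0.0201 and the 37th smallest p of all genes. Each value rests on 431 to 686 counts in DC371739 and 651 to 1436 counts in control libraries. The gene (ENSMAUG00000015055) lies at 12945649 to 12960936 on the plus strand of scaffold KB708154.1, in 8 distinct annotated exons of 3152 bases in sum, and no other annotated gene overlaps it.

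The lower Slc19a2 level was also seen within each library class. Among the 11 shallower libraries the ranges were 10.5 to 16.7 FPKM in the 6 DC371739 and 20.4 to 33.6 FPKM in the 5 control livers, which did not overlap; in all, 5.29% of genes lay lower in every DC371739 library of this class than in every control library. The log2 change was -1.06 there (SE 0.16, edgeR adjusted p = 0.00149) and -1.02 with library class as a term (SE 0.13, adjusted p = 0.00208). Among the deeper libraries, Slc19a2 stood at 9.94 FPKM in the DC371739 library and at 16.4 and 19.1 FPKM in the 2 control libraries, too few for a test. The call over all 14 libraries was lost without DC371739 replicate 2 (log2 change -0.92, adjusted p = 0.0535) or DC371739 replicate 3 (-0.96, adjusted p = 0.0566), while the adjusted p was at most 0.0490 when any 1 of the other 12 libraries was left out. In bulk RNA, fewer cells of a type and less RNA per cell cannot be told apart, and the part of the macrophage marker difference in the Slc19a2 result was not tested.

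Over all 14 libraries Slc19a2 was the 1 member called, and the other 8 did not pass. Of all genes tested, 1.85% were called in either direction and 0.608% were called as lower. The median log2 fold change of the 9 was 0.10, against -0.02 over all 12166 genes. With library class as a term the count was again 1 of 9, against 12.3% of all genes. Over the 11 shallower libraries it was 3 of 9, Slc19a2 lower and Pdha1 and Pdk1 higher, against 21.5% of all genes. Whether the treatment difference itself differed between library classes was not tested.

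**Figure D2:**
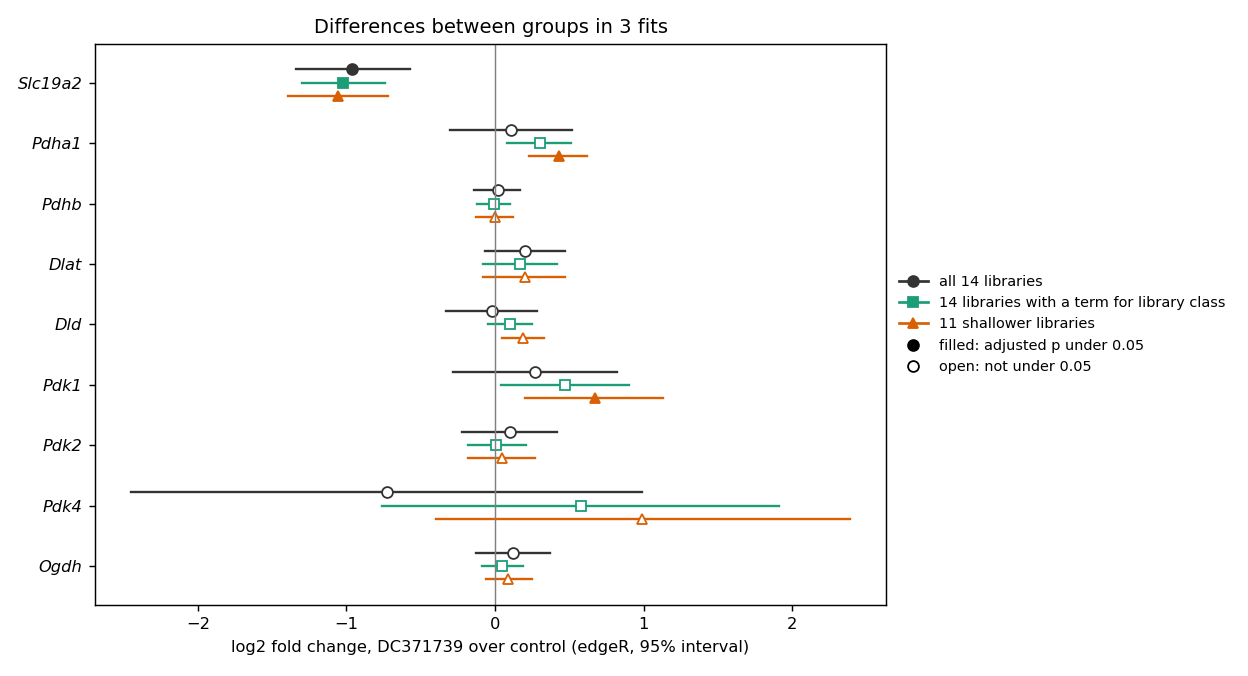
Log2 fold change of DC371739 over control (horizontal axis) with its 95% interval for each of the 9 genes (vertical axis) in 3 edgeR fits (all 14 libraries, the same 14 with library class as a term, and the 11 shallower alone), filled where the adjusted p is under 0.05. Slc19a2 lies between -1.06 and -0.96 in all 3 fits, Pdhb lies near 0 with the shortest intervals, and the estimate for Pdk4 is -0.73 over all libraries and 0.99 over the shallower ones.

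The first component of pyruvate dehydrogenase is built from the alpha subunit encoded by Pdha1, which carries the phosphorylation sites, and the beta subunit encoded by Pdhb. Pdha1 (ENSMAUG00000002413, scaffold KB708171.1, 10662757 to 10677349, plus strand) had a lowest, median and highest level of 39.1, 42.2 and 56.0 FPKM in DC371739 livers, against 23.9, 35.3 and 69.7 FPKM in control livers. The DC371739 range lay inside the control range, because the 2 deeper control libraries, at 58.5 and 69.7 FPKM, were the highest of all and the other 5 the lowest. Over all 14 libraries the log2 change was 0.11 (SE 0.19, 95% interval -0.30 to 0.52, edgeR adjusted p = 0.793).

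Among the 11 shallower libraries Pdha1 stood at 39.1 to 43.4 FPKM in DC371739 and 23.9 to 36.2 FPKM in control livers, and the groups did not overlap; 4.09% of all genes lay higher in every DC371739 than in every control library of this class. Pdha1 rose there by 0.43 on the log2 scale (SE 0.09, edgeR adjusted p = 0.00641), and it passed whichever further library was left out, with log2 changes of 0.34 to 0.48 and an adjusted p of at most 0.0220. With library class as a term it was at 0.30 (SE 0.10, adjusted p = 0.0654). Among the deeper libraries the order was the other way round, with 56.0 FPKM in the DC371739 library and 58.5 and 69.7 FPKM in the 2 control libraries.

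Pdhb (ENSMAUG00000004888, scaffold KB708199.1, 7014874 to 7020100, minus strand) was the steadiest member. Its levels were 120, 135 and 142 FPKM (lowest, median and highest) in DC371739 livers, against 117, 138 and 143 FPKM in control livers. The log2 change was 0.02 (SE 0.07) and its 95% interval, -0.14 to 0.17, leaves room for small differences only. The SD of its log2 CPM within groups was 0.11 over all 14 libraries, lower than in all but 2.78% of genes, and 0.05 over the 11 shallower ones. Because Pdhb hardly varied, the ratio of Pdha1 to Pdhb followed Pdha1: it was 0.275 to 0.322 in the shallower DC371739 and 0.170 to 0.261 in the shallower control livers, while the deeper libraries reached 0.467 in DC371739 and 0.561 in control livers.

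**Figure D3:**
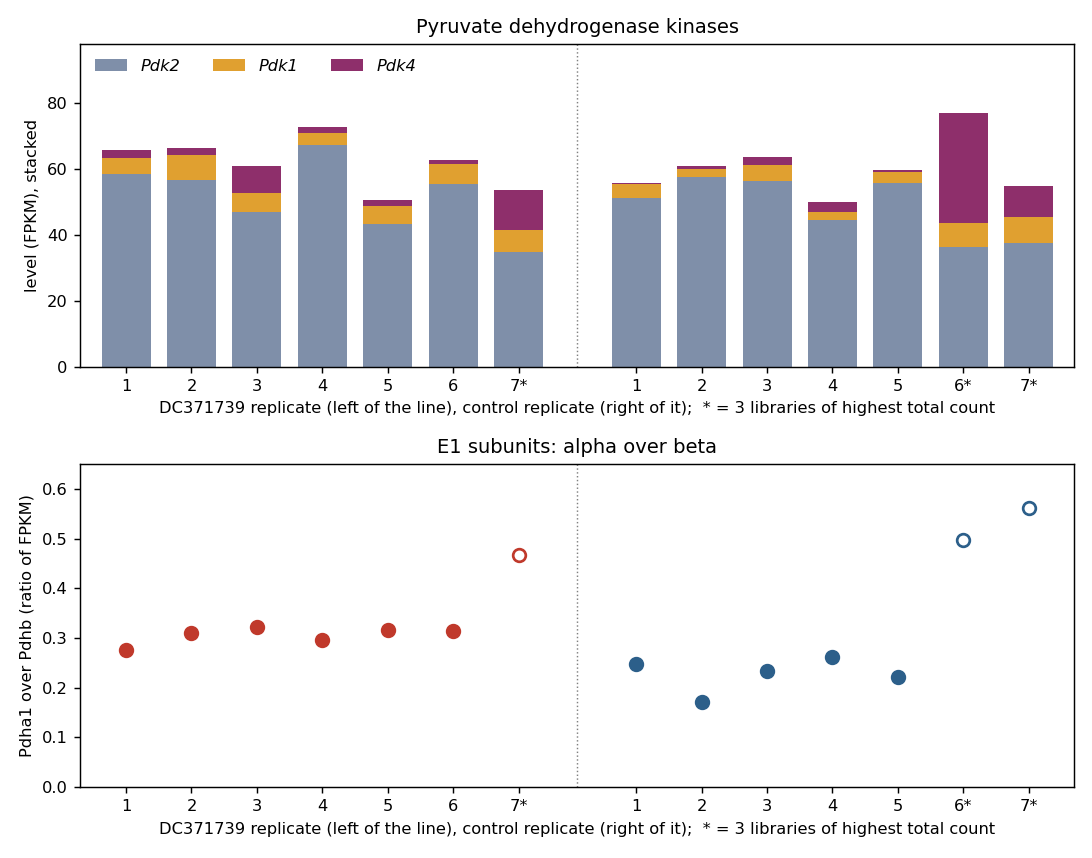
Top, stacked levels in FPKM (vertical axis) of Pdk2, Pdk1 and Pdk4 in each library (horizontal axis, DC371739 replicates left of the dotted line and control replicates right of it, stars for the 3 deeper libraries). Bottom, the ratio of Pdha1 to Pdhb in the same libraries, with open circles for the deeper ones; the starred libraries have the highest ratios and the highest Pdk4, 9.46 to 33.3 FPKM, against 0.510 to 8.29 FPKM in the others.

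Dlat, the dihydrolipoamide acetyltransferase that forms the core of the complex, had levels of 16.5, 18.9 and 20.3 FPKM (lowest, median and highest) in DC371739 livers, against 13.2, 15.2 and 25.2 FPKM in control livers. Each of the 7 DC371739 values exceeded the median of the controls, but control replicate 4, with 25.2 FPKM, was the highest of all. The log2 change was 0.20 (SE 0.13, 95% interval -0.07 to 0.47, edgeR adjusted p = 0.397). Dlat depended on that library: without control replicate 4 its log2 change was 0.33 over the remaining 13 libraries (adjusted p = 0.0661) and 0.38 over the remaining 10 shallower ones (adjusted p = 0.00419), against 0.20 over all 11 shallower libraries (adjusted p = 0.281). With library class as a term it was 0.17 (adjusted p = 0.338). The gene (ENSMAUG00000014831) lies at 13232539 to 13258975 on the minus strand of scaffold KB708145.1.

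Dld encodes dihydrolipoamide dehydrogenase, the flavoprotein that the pyruvate, 2-oxoglutarate and branched-chain complexes and the glycine cleavage system share (ENSMAUG00000015436, scaffold KB708187.1, 9829785 to 9850259, minus strand). Its levels were 79.0, 84.5 and 107 FPKM in DC371739 livers, against 68.7, 76.4 and 129 FPKM in control livers. As for Pdha1, the extremes of the control group came from its library classes, with 123 and 129 FPKM in the deeper and 68.7 to 79.6 FPKM in the other control libraries. The log2 change was -0.02 over all 14 libraries (SE 0.14, 95% interval -0.33 to 0.28) and 0.19 over the 11 shallower ones (SE 0.07, edgeR adjusted p = 0.0525), with 0.10 when library class was a term (adjusted p = 0.353). Without control replicate 4 the 10 remaining shallower libraries gave 0.21 with an adjusted p of 0.0399, so that the call in that class turned on 1 library.

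The 3 kinases differed far more in level than between groups. Pdk2, the broadly expressed kinase, made up 64.9% to 92.4% of the summed FPKM of the 3 in DC371739 livers and 47.2% to 94.5% in control livers. The sum was 61.8 ± 7.71 FPKM in DC371739 and 60.4 ± 8.63 FPKM in control livers (SD, n = 7 each). Pdk2 itself (ENSMAUG00000020321, scaffold KB708184.1, 7396955 to 7410709, minus strand) had levels of 34.8, 55.5 and 67.4 FPKM in DC371739 livers, against 36.3, 51.2 and 57.7 FPKM in control livers, a log2 change of 0.10 (SE 0.15, 95% interval -0.22 to 0.42, edgeR adjusted p = 0.766). It was 0.01 with library class as a term and 0.05 over the shallower libraries. In both groups the lowest levels were those of the deeper libraries.

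Pdk1, a kinase known as a target of hypoxia-inducible factor, was a low gene with 31 to 160 counts per library (ENSMAUG00000019499, scaffold KB708128.1, 52001699 to 52035805, minus strand). It stood at 3.42, 5.54 and 7.62 FPKM in DC371739 livers, against 2.45, 4.14 and 7.99 FPKM in control livers. Over all 14 libraries the log2 change was 0.27 (SE 0.26, 95% interval -0.28 to 0.82, edgeR adjusted p = 0.596). Among the 11 shallower libraries Pdk1 rose by 0.67 (SE 0.22, adjusted p = 0.0407), with 3.42 to 7.62 FPKM in DC371739 and 2.45 to 4.88 FPKM in control livers, which overlapped. That call depended on single libraries: when DC371739 replicate 2, 3, 5 or 6, or one of control replicates 2, 4 and 5, was also left out, the adjusted p lay above 0.05, at up to 0.10. The log2 changes were 0.55 to 0.82 across all such omissions. With library class as a term the 14 libraries gave 0.47 (SE 0.20, adjusted p = 0.126).

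Pdk4 was the most variable member and had no direction that held. Its levels were 1.24, 2.19 and 12.2 FPKM (lowest, median and highest) in DC371739 livers, against 0.510, 2.36 and 33.3 FPKM in control livers. The highest values came from the deeper libraries, with 12.2 FPKM in DC371739 replicate 7 and 33.3 and 9.46 FPKM in control replicates 6 and 7, followed by 8.29 FPKM in DC371739 replicate 3, a shallower library. The other 5 DC371739 libraries held 1.24 to 2.43 FPKM, and the 5 shallower control libraries 0.510 to 3.08 FPKM. Counts reached from 23 in control replicate 1 (exact Poisson 95% interval 14.6 to 34.5, which covers counting error only) to 1726 in control replicate 6 (1646 to 1809), so the spread was far beyond counting error.

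The log2 change of Pdk4 was -0.73 over all 14 libraries (SE 0.81, 95% interval -2.45 to 0.99, edgeR adjusted p = 0.657), 0.60 without control replicate 6 (adjusted p = 0.660), 0.58 with library class as a term and 0.99 over the 11 shallower libraries (SE 0.62, 95% interval -0.40 to 2.39, adjusted p = 0.281). Without DC371739 replicate 3 the value over the shallower libraries was 0.36. At 1.72 over all 14 libraries and 0.99 over the shallower ones, the SD of its log2 CPM within groups was higher than in at least 99.4% of genes in either case, against medians of 0.29 and 0.20 over all genes. The gene (ENSMAUG00000014529) lies at 2036118 to 2048025 on the minus strand of scaffold KB708266.1.

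Ogdh encodes the thiamine-dependent first component of 2-oxoglutarate dehydrogenase, which acts in the citric acid cycle (ENSMAUG00000021826, scaffold KB708365.1, 758255 to 813932, plus strand). Its levels were 66.9, 102 and 108 FPKM in DC371739 livers, against 69.4, 93.3 and 97.2 FPKM in control livers. The 5 shallower control libraries lay within 92.3 to 97.2 FPKM, and 5 of the 6 shallower DC371739 libraries lay above that range, DC371739 replicate 5 with 84.8 FPKM lying below it. The log2 change was 0.12 (SE 0.12, 95% interval -0.13 to 0.37, edgeR adjusted p = 0.614) over all 14 libraries, 0.05 (SE 0.07, adjusted p = 0.666) with library class as a term and 0.09 (SE 0.07, adjusted p = 0.376) over the shallower ones.

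Most members stood apart between library classes. In CPM, Pdha1, Dld and Pdk4 were higher in all 3 deeper libraries than in any of the other 11, and Pdhb, Pdk2 and Ogdh were lower in all 3, so that 6 of the 9 did not overlap between classes; of all genes tested, 13.8% were higher and 14.2% lower in this way. The mean level of Pdk4 was 18.3 FPKM in the deeper and 2.32 FPKM in the other libraries, a ratio of 7.89. The ratio of deeper over other means was 1.66 for Pdha1 and 1.51 for Dld, and it was 0.671 for Pdk2, 0.723 for Ogdh and 0.877 for Pdhb. Slc19a2, Dlat and Pdk1 overlapped between the classes. These are descriptions of 3 libraries with the highest total counts and mitochondrial shares, and the part of either measure in them was not tested.

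Beyond the 9, 61 symbols of 6 pathway lists were looked up and 42 genes were found, all of which were tested. Over all 14 libraries edgeR called none of the 42 (5 of them had an unadjusted p under 0.05), DESeq2 called 2, against 6.92% of all genes, and limma-voom with sample quality weights 10, against 22.5%. Their median log2 fold change was -0.02, as over all genes. Fitted with library class, edgeR called 5 of the 42 (2 higher, 3 lower), against 12.3% of all genes. In the 11 shallower libraries it called 11 of the 42 (9 higher, 2 lower), against 21.5% of all genes, so both shares were near those of all genes.

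**Figure D4:**
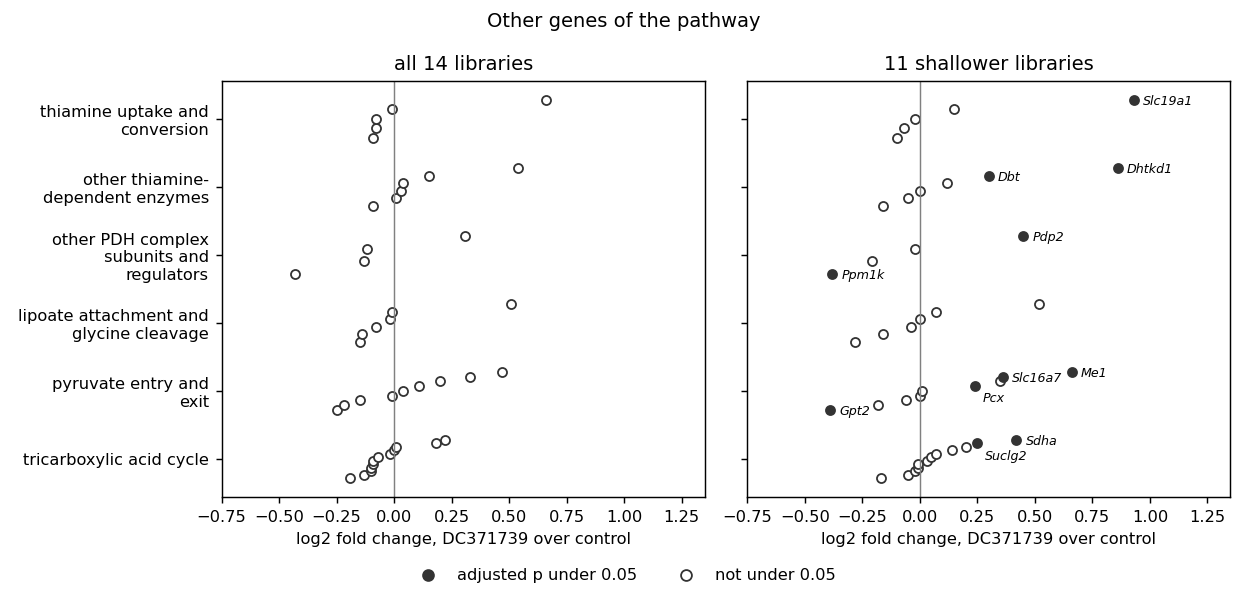
Log2 fold change of DC371739 over control (horizontal axis) for each tested gene of 6 pathway lists (vertical axis), over all 14 libraries on the left and over the 11 shallower ones on the right, filled and named where the edgeR adjusted p is under 0.05. No point is filled on the left and 11 are on the right, led by Slc19a1 at 0.93 and Dhtkd1 at 0.86.

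Among the genes of thiamine uptake and conversion, a close relative of Slc19a2 differed in the opposite direction. Slc19a1, the reduced folate carrier, which is known in mouse cells to carry phosphorylated thiamine, had levels of 20.9, 25.5 and 31.3 FPKM (lowest, median and highest) in DC371739 livers, against 11, 15.3 and 25.0 FPKM in control livers. Its log2 change was 0.66 over all 14 libraries (SE 0.17, edgeR adjusted p = 0.0512), which did not pass, and it rose by 0.76 with library class as a term (SE 0.15, adjusted p = 0.00956) and by 0.93 over the 11 shallower libraries (SE 0.14, adjusted p = 0.00126). In the shallower class every DC371739 library, at 20.9 to 31.3 FPKM, lay above every control library, at 11 to 17.4 FPKM. Of all genes tested, 4.09% lay higher in this way in CPM. Among the deeper libraries the DC371739 library, at 24.1 FPKM, lay between the 2 control libraries, at 20.1 and 25.0 FPKM. Summed macrophage markers were 606 to 935 FPKM in the shallower DC371739 and 559 to 769 FPKM in the shallower control libraries. Their part in the Slc19a1 difference was not tested.

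No other gene of that list passed in any of the 3 fits. Slc19a3, the second thiamine transporter, stood at 0.758 ± 0.210 FPKM in DC371739 and 0.809 ± 0.193 FPKM in control livers (SD, n = 7 each), far below Slc19a2 (log2 change -0.09, 95% interval -0.55 to 0.37).

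Of 6 other genes of thiamine-dependent complexes and transketolase, none passed over all 14 libraries or with the class term, and 2 rose over the shallower ones. Dhtkd1, the first component of the 2-oxoadipate dehydrogenase of lysine breakdown, was at 35.2 ± 7.81 FPKM in DC371739 and 24.2 ± 9.0 FPKM in control livers (SD, n = 7 each), with a log2 change of 0.54 over all 14 libraries (edgeR adjusted p = 0.165) and 0.86 over the shallower ones (adjusted p = 0.0159). Dbt, the core of the branched-chain complex, was at 0.15 over all 14 libraries (adjusted p = 0.465) and rose by 0.30 over the shallower ones (adjusted p = 0.0329). Its first-component subunits Bckdha and Bckdhb were at -0.09 and 0.01 on the log2 scale over all 14 libraries. The 2 calls among these 6 genes stand beside a rate of 21.5% for all genes tested in the 11 shallower libraries.

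Among regulators, Pdp2, a phosphatase that reactivates pyruvate dehydrogenase, was at 7.0 ± 1.17 FPKM in DC371739 and 5.66 ± 1.05 FPKM in control livers (SD, n = 7 each), a log2 change of 0.31 (edgeR adjusted p = 0.197), and it rose by 0.45 over the shallower libraries (adjusted p = 0.0214). Pdhx, which binds Dld to the core, did not pass in any fit (log2 change -0.13 over all 14 libraries). Ppm1k, the phosphatase of the branched-chain complex, was at 16.3 ± 2.2 FPKM in DC371739 and 22 ± 4.09 FPKM in control livers, with a log2 change of -0.43 (adjusted p = 0.0603), and it fell by 0.40 with the class term (adjusted p = 0.0247) and by 0.38 over the shallower libraries (adjusted p = 0.0206). Its opposing kinase Bckdk was at -0.12 over all 14 libraries (adjusted p = 0.759), fell by 0.22 with the class term (adjusted p = 0.0398), and was at -0.21 over the shallower libraries (adjusted p = 0.0568). The calls for Pdp2, Ppm1k and Bckdk stand beside rates for all genes of 12.3% in the fit with library class and 21.5% in the 11 shallower libraries. Pdk3, Pdp1 and Pdpr had no entry in the table of symbols and are not analysed here.

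None of the 6 genes of lipoate attachment and glycine cleavage passed in any of the 3 fits; Gldc, glycine decarboxylase, had the largest log2 change over all 14 libraries, 0.51 (edgeR adjusted p = 0.224). Mcat and Amt, which encode mitochondrial malonyl transferase and the aminomethyltransferase of glycine cleavage, were at -0.15 and -0.02. Of 9 genes of pyruvate entry and exit, none passed over all 14 libraries, where Me1 was at 0.47, Slc16a7 at 0.11, Pcx at 0.20 and Gpt2 at -0.25 (adjusted p of 0.250 to 0.764). Over the 11 shallower ones Me1, cytosolic malic enzyme (0.66, adjusted p = 0.0286), Slc16a7, a monocarboxylate transporter (0.36, adjusted p = 0.0111), and Pcx, pyruvate carboxylase (0.24, adjusted p = 0.0467), rose, and the mitochondrial alanine aminotransferase Gpt2 fell (-0.39, adjusted p = 0.0228), as it did with the class term (-0.33, adjusted p = 0.0379). Of all genes, 21.5% were called over the shallower libraries and 12.3% with the class term. The mitochondrial pyruvate carrier subunit Mpc2 was at 290 ± 53.2 FPKM in DC371739 and 337 ± 54.1 FPKM in control livers (SD, n = 7 each; log2 change -0.22, adjusted p = 0.326), and Pklr, liver pyruvate kinase, at 428 ± 115 FPKM in DC371739 and 339 ± 103 FPKM in control livers (0.33, adjusted p = 0.359). Of 12 genes of the citric acid cycle, none passed over all 14 libraries, where Sdha was at 0.22 (adjusted p = 0.299) and Suclg2 at 0.01 (adjusted p = 0.971). Sdha, the flavoprotein of succinate dehydrogenase, rose by 0.30 with the class term (adjusted p = 0.0496) and by 0.42 over the shallower libraries (adjusted p = 0.00484), where Suclg2, a succinyl-CoA ligase subunit, also rose (0.25, adjusted p = 0.0467). The iron-sulphur subunit of the same dehydrogenase, Sdhb, was at -0.17 there and did not pass (adjusted p = 0.178). Suclg1, the shared succinyl-CoA ligase subunit, was at -0.13 over all 14 libraries (SE 0.13), and did not pass.

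The genes whose log2 CPM was most like that of Slc19a2 over the 14 libraries were Rab17, Lmo4, Zfp963 and Pigv, with Pearson correlations of 0.92, 0.92, 0.90 and 0.89 among 10010 genes compared. All 4 were lower in DC371739 livers (edgeR adjusted p of 0.0201 to 0.0457), and part of the likeness is that shared group difference: over the 11 shallower libraries with group means removed the correlations were 0.52, 0.68, 0.68 and 0.48. For Pdk4 the most alike were Tram1, Tmx1, Mbnl2 and Laptm4a, at 0.92, 0.91, 0.91 and 0.91. Over the 11 shallower libraries these were 0.75, 0.73, 0.82 and 0.70. The 4 were picked for their correlation over all 14 libraries, and the part of the deeper libraries in it was not tested. All libraries of a group share their treatment and all 14 share the scaling, and the correlations are given as descriptions.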

How the data were processed

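RNA of 14 hamster liver samples was sequenced. The submitters' processing notes name the tools HISAT2 2.2.1, edgeR and featureCounts 2.0.0. The sources used here give no settings, genome build, annotation or strand, so the coordinates are those of the authors' count table. The authors deposited whole-number read counts of 22283 genes. The authors' FPKM, in the deposited table of symbols, equal count over length and over 1 constant per library. That table also holds the authors' log2 fold changes and p-values, for Slc19a2 -0.95 and an adjusted p of 0.0203 in the authors' deposited table.

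Counts were tested with edgeR 4.0.16 (R 4.3.3): quasi-likelihood F-test, robust, TMM scaling, filterByExpr with a minimum count of 10, Benjamini-Hochberg adjustment over all 12166 genes, threshold 0.05, treatment as the only term. SE is the log2 fold change over the root of F. Log2 CPM used a prior count of 2. Members and lists were chosen with earlier results of these data known. Genes named beyond the members were, of 6 lists, every called gene, the 2 of smallest p and the 2 of highest FPKM, with set transporters, kinases and phosphatases, and the 4 genes most like Slc19a2 and Pdk4 by Pearson correlation of log2 CPM. Some genes that this rule names are not reported here. Library class was added after the data were seen. Alternatives were other scalings and filters, DESeq2 1.42.0, limma 3.58.1 (voom with sample weights, or log2 FPKM plus 1 or 0.1), a replicate block and each library left out. Whether replicate numbers pair the libraries is not stated in the sources used here. No 2 libraries of a group agreed within sampling noise (chi-square per degree of freedom at least 11.2 over 42 pairs).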

Additional observations from a re-analysis of the deposited data

Results flagged for a closer look

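Of 64 sets of 7 libraries (32 named genes in each group), 5 had a library far from the others, where chance gives about 1 in 20. In DC371739 livers Pdha1 was highest in the deeper replicate 7, at 77.9 CPM, the next being 61.8 CPM, and Pdhb was lowest there, at 156 CPM, the next being 178 CPM. Slc16a7 was highest in the same library, at 86.5 CPM, the next being 67.5 CPM. In control livers Pdk4 was highest in the deeper replicate 6, at 85.3 CPM, the next being 24.4 CPM in the deeper replicate 7. Dlat was highest in control replicate 4, a shallower library, at 37.5 CPM, the next being 25.7 CPM.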

How the results depend on the processing

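The count of genes called depended on the model: 225 over all 14 libraries, 842 by DESeq2, 2739 by limma-voom with sample quality weights, 1499 with library class as a term and 2635 in the 11 shallower libraries, and 160 to 288 under the other scalings, filters and FPKM. It was 25 to 1069 when each library was left out, and 1624 to 2913 when each was left out of the 11. Members called were 1, and 3 by limma-voom and in the 11 shallower libraries; with each library left out they were 0 to 1, and from the 11, 2 to 4. Called pathway genes were 0; they were 1 with upper-quartile scaling, library size alone, the filter at 1 CPM or either FPKM setting, 2 by DESeq2, 10 by limma-voom, 5 with class and 11 in the 11 shallower libraries, and 0 to 2 and 5 to 12 with each library left out of the 14 and of the 11. With the replicate block, edgeR called 8 genes, 0 members and 0 pathway genes, and Slc19a2 was at -0.93 (adjusted p = 0.0632). Same-numbered libraries correlated at -0.13 to 0.55, the highest being replicate 7, where both libraries are deeper. These correlations cannot show whether the numbers pair animals, which the labels do not say. The Slc19a2 direction held under every alternative, with log2 changes of -1.15 to -0.87.

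Near-zero and unstable log2 changes turned sign. Pdhb became 0.00 by limma-voom and in the 11, and -0.01 with class. Dld became 0.02 with library size alone, 0.13 by limma-voom, 0.01 with FPKM and the block, 0.10 with class and 0.19 in the 11. Pdk4 became 0.83 by limma-voom, 0.01 and 0.20 with FPKM plus 1 and plus 0.1, 0.37 with the block, 0.58 with class and 0.99 in the 11. Bckdhb became -0.02 by limma-voom and 0.00 in the 11, and Amt 0.00 with upper-quartile scaling and library size alone. Leaving out libraries gave -0.03 to 0.05 for Pdhb, -0.08 to 0.21 for Dld, -0.02 to 0.18 for Pdk2, -1.26 to 1.42 for Pdk4, -0.19 to 0.01 for Slc19a3, -0.15 to 0.01 for Bckdha, -0.01 to 0.04 for Bckdhb, -0.06 to 0.01 for Amt and -0.05 to 0.12 for Suclg2. The cause was not tested. The counts of Pdk1, as few as 31 in a library, limit its precision.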
